A study of Mus musculus with 6 samples.

Results

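Ribosomal proteins of the cytosolic ribosome were followed in tumours that grew in hosts with and without tenascin-C. The 51 genes described were those whose single gene symbol in the array's annotation was Rpl or Rps followed by a number (the S6 kinases, whose names also begin so, were left out), or was Rplp0, Rplp1, Rplp2 or Rpsa, out of 18193 genes with a single-symbol probe set. They had 107 of the 45037 probe sets that were not controls, and 24 belonged to the small subunit, 26 to the large subunit and 1 to neither. That 1 was Rps19bp1, a gene for an Rps19-binding protein that only its symbol brought in. The symbols also brought in 7 paralogs or pseudogenes (Rps27l, Rps4l, Rps15a-ps6, Rpl22l1, Rpl39l, Rpl3l and Rpl7l1), which left 43 genes of the ribosome proper. Several subunit genes, among them Rpl3, Rpl5, Rplp1 and Rps27a, had no probe set with a single symbol and were not analysed here.

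Each array held RNA of 1 tumour. GLMT1 cells, a mouse line named for a lung metastasis of the GRS/A strain, were grown under the back skin of male GRS/A mice, 10 weeks old in the sample labels. The tested hosts were GRS/A-TgH(TnC) mice, which lack the extracellular matrix glycoprotein tenascin-C (TNKO, 3 tumours), and their controls were wild-type GRS/A mice (WT, 3 tumours), and the labels call the 3 tumours of a host biological replicates. The same cell line was put into both hosts, so the genotype was that of the host and not of the inoculated cells, and all tumours derived from 1 line. The labels name no lineage for the line. Krt8, a keratin of simple epithelia, stood at a mean level of 11.45, the highest of 7 epithelial markers. Krt14, Krt18 and Cdh1 also lay above the gene median of 7.09. Krt19, Krt5 and Epcam lay under it, at 6.07, 6.78 and 7.04. The lineage of the line was not tested. In excised tumours, fewer cells of a type and less RNA per cell cannot be told apart.

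The cytosolic ribosome joins a small subunit, which reads the mRNA, to a large subunit, which links the amino acids. Each of its proteins is normally made in step with the others, and their mRNAs are among the most abundant of a growing cell. Many of these mRNAs begin with a tract of pyrimidines through which mTORC1 signalling controls their translation, and free Rpl11 or Rps7 can bind Mdm2 and so raise p53.

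The deposited values are on a scale taken as log2, and they hardly differed between arrays. Over all probe sets the median span from the lowest to the highest of the 6 arrays was 5.46 millionths of a deposited log2 unit, and over the 51 genes it was 1.06 millionths. Differences are therefore given in millionths of a deposited log2 unit and in residual SDs, the difference of the group means over the SD of the tumours within groups, and they cannot be read as fold changes of RNA. Levels are those of the probe set with the highest mean over the 6 arrays for each gene. They place a gene within the array's range and are not read as relative amounts of RNA between genes. The array medians lay between 6.567399 and 6.56758 for 5 arrays and at 6.569797 for TNKO-host tumour 3.

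The genes stood near the top of the array's range. Of the 51, 34 lay at or above the 99th percentile of level over all probe sets, 36 had a level of at least 10, and 4 lay under the gene median of 7.09. The deposited table holds 10 significant digits, so a value of 10 or more moves in steps of 0.01 millionths. Rplp0, Rpl27, Rpl38, Rps28, Rps3a1 and Rps4x spanned fewer than 10 such steps over the 6 tumours, and their differences are close to the rounding of the table. The brightest probe set carried the suffix _x_at, which the maker uses where probes may bind other transcripts, for 13 of the 51 genes. Ribosomal protein genes have many processed pseudogenes, so signal from near-identical copies cannot be told apart from that of the gene on such probe sets.

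**Figure D1:**
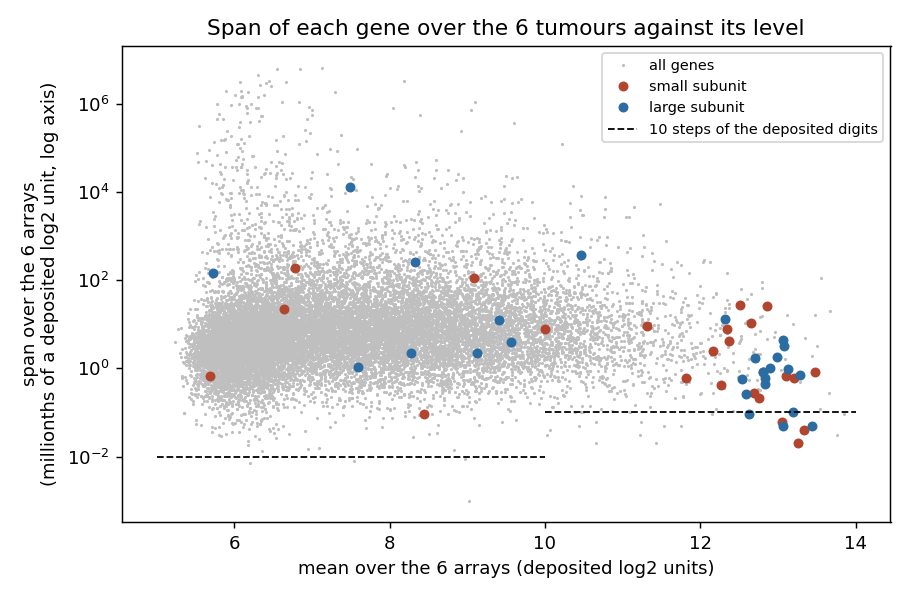
Span over the 6 tumours (vertical axis, millionths of a deposited log2 unit, log scale) against mean level (horizontal axis, deposited log2 units), with 1 point per gene, small subunit genes in red and large subunit genes in blue. The median span of the ribosomal protein genes was 1.06 millionths, and 6 of them lie below the dashed line of 10 steps of the deposited digits.

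Promoter sequence was set beside the values for 44 of the 51 genes, which had 52 windows of 250 bases before to 50 bases after an annotated start in RefSeq (GRCm38.p6). The letters CCGGAAG, the core that ETS family factors bind, stood on either strand in 40.4% of these windows, against 13.0% of the 18009 windows of all genes with a single-symbol probe set and 8.86% of all 32851 windows. CTTTCC, letters that can form part of a pyrimidine tract, stood on the gene's own strand within 30 bases of the start in 15.4% of the windows, against 2.77% of the windows of genes on the array. For CTTTTC these shares were 7.69% and 1.79%. AAGATGG, a core bound by YY1, stood on either strand in 15.4% and 6.39%, the GC box GGGCGG in 53.8% and 52.4%, and TATAAA in 11.5% and 9.76%. Matches may overlap, since the ends of the pyrimidine letters and of the YY1 core can share bases with an ETS core. A match describes the letters in a window and does not show that a factor binds there.

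The windows below run from 70 bases before to 20 bases after the most upstream annotated start, on the gene's strand, and belong to the 4 genes of each subunit that were higher in TNKO hosts with the smallest unadjusted p. They are shown so that the start regions of genes with a small p in each subunit can be compared. Capitals mark CCGGAAG on either strand, CTTTCC and CTTTTC, and matches of the other motifs are left in lower case.
Rps27 chr3:90213629-90213718 (- strand): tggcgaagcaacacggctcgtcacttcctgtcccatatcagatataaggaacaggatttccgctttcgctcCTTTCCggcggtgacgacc
Rps27l chr9:66946016-66946105 (+ strand): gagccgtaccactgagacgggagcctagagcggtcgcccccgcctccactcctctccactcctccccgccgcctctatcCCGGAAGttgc
Rps25 chr9:44407644-44407733 (+ strand): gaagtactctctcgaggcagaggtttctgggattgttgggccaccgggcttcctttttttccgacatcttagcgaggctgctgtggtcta
Rps19 chr7:24884522-24884611 (+ strand): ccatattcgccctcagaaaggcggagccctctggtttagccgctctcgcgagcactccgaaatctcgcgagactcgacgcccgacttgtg
Rpl27a chr7:109519125-109519214 (+ strand): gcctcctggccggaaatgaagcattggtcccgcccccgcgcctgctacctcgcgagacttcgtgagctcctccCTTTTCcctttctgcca
Rpl39 chrX:37085203-37085292 (- strand): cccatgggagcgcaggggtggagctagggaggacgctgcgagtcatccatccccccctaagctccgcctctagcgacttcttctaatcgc
Rpl41 chr10:128549149-128549238 (- strand): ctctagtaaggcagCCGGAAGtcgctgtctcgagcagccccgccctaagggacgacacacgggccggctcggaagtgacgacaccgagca
Rpl22l1 chr3:28805438-28805527 (+ strand): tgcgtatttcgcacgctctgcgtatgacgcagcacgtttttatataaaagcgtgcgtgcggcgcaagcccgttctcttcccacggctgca
Of the small subunit genes, Rps27 had CTTTCC just after its start and Rps27l had CCGGAAG there, and of the large subunit genes, Rpl27a had CTTTTC just after its start and Rpl41 had CCGGAAG upstream. The windows shown for Rps25, Rps19, Rpl39 and Rpl22l1 held no match of these letters.

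None of the 51 genes passed the test between hosts. With limma and Benjamini-Hochberg adjustment over all 45037 probe sets, 0 of 51 lay under an adjusted p of 0.05, against 22 of all 18193 genes (0.121%). At an unadjusted p under 0.05, 15 of the 51 were higher in TNKO hosts and 0 were lower, against 9.99% higher and 8.43% lower over all genes. All 3 TNKO-host values lay above all 3 WT-host values for 21 of the 51, and below them for 1, against 15% and 11.1% of all genes. The mean was higher in TNKO hosts for 36 of 51 genes, a share of 70.6% against 57.5% of all genes, and lower for 15 (42.4% of all genes), while after quantile normalization 0 of 51 and after subtraction of the array medians 0 of 51 were higher, against 1.75% and 1.30% of all genes. Under both scalings the share of the members that was higher lay near that of all genes. After quantile normalization 26 of the 51 were lower and 25 had no difference in either direction. Subtraction moved the difference of every probe set by -764 millionths, which is larger than the difference of all but 1 of the 51 genes, and all 51 were lower after it.

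The direction was also set against that of all bright genes. Among the 36 ribosomal protein genes at a level of at least 10, 29 were higher in TNKO hosts in the deposited values, a share of 80.6%, against 44.7% of the 1265 genes at that level. The median difference was 1.33 residual SDs over the 51 genes, against 0.283 over all genes and -0.299 over all genes at a level of at least 10. After quantile normalization it was -0.195 over the 51 genes, against -0.808 over all genes, and after subtraction of the medians -0.806 over both. The members were chosen with results of these data known, so these shares are descriptions and no test of the list was made.

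The array maker's control probe sets were read beside the genes. All 18 hybridisation control probe sets, whose RNA is added in the laboratory, were higher in TNKO hosts by 0.173 to 61.4 millionths, with a median of 16.8, and 16 of them had groups that did not overlap. The 3 probe sets for 18S rRNA, the RNA of the small subunit itself, were lower, with differences of -14.1, -11.7 and -2.99 millionths. Of the probe sets placed at the 5' end of 4 mouse transcripts, a sign of RNA quality, 3 were lower in TNKO hosts, all with groups apart. The median difference over all 4 was -38.9 millionths and -4.33 residual SDs. Of the 4 probe sets at the 3' ends 3 were lower, 2 with groups apart (actin and the transferrin receptor). For actin the difference was -402 millionths (-4.44 residual SDs) at the 5' end and -1.22 (-2.46) at the 3' end. For Gapdh it was -69.9 (-4.22) and -0.86 (-1.32), and for the transferrin receptor -7.88 (-5.70) and -4.45 (-2.15). Pyruvate carboxylase was higher at both ends, by 0.802 (0.973) and 1072 (1.34). The part of any of these controls in the differences of the ribosomal protein genes was not tested.

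The 2 subunits were then taken apart, and the difference between them was not tested. In the deposited values 21 of 24 small subunit genes were higher in TNKO hosts, with a median of 1.93 residual SDs, against 15 of 26 large subunit genes with a median of 1.18. After quantile normalization 0 of 24 and 0 of 26 were higher, with 13 small and 12 large subunit genes lower and 11 small and 14 large without a direction. After subtraction of the medians 0 of 24 and 0 of 26 were higher. Of all genes, 1.75% and 1.30% were higher under these scalings. Groups did not overlap for 12 small subunit genes, all higher in TNKO hosts, and for 10 large subunit genes, of which 9 were higher and 1 was lower, against 15% higher and 11.1% lower over all genes. Restricted to the genes of the ribosome proper, 19 of 21 small and 13 of 22 large subunit genes were higher. Of the genes at a level of at least 10, these counts were 17 of 18 and 12 of 18.

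**Figure D2:**
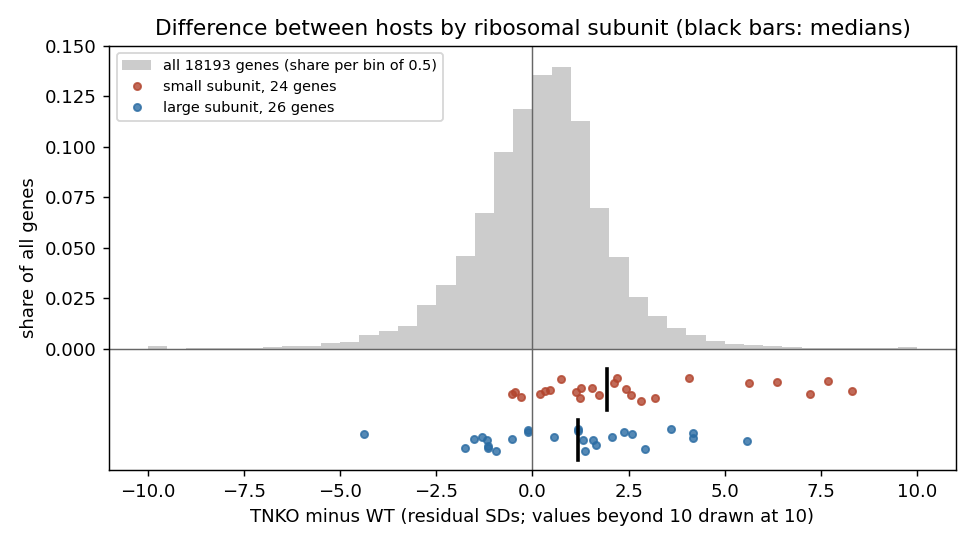
Difference between hosts (horizontal axis, TNKO minus WT in residual SDs) for all 18193 genes as a histogram and, below it, for each of the 24 small subunit genes (red) and 26 large subunit genes (blue), with medians as black bars. The medians were 1.93 and 1.18 residual SDs against 0.283 over all genes in the deposited values, and after quantile normalization or subtraction of array medians none of these genes was higher in TNKO hosts, against 1.75% and 1.30% of all genes.

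Among the small subunit proteins, Rps27, a zinc finger protein, had the smallest p. Its deposited values were 9.996678062, 9.996677978 and 9.996677597 in TNKO-host tumours 1, 2 and 3, against 9.996671164, 9.996672837 and 9.996670445 in WT-host tumours 1, 2 and 3. Relative to the mean over the 6 arrays these are 3.38, 3.3 and 2.92 millionths in TNKO-host tumours 1, 2 and 3, against -3.52, -1.84 and -4.24 millionths in WT-host tumours 1, 2 and 3. The TNKO-host values lay close together and above all WT-host values. The difference was 6.4 millionths (SE 0.707, 7.23 residual SDs, limma adjusted p = 0.067). The fit restricted to probe sets above the median level called 285 of 22518 probe sets, against 79 of 45037 without the restriction. In it the same Rps27 difference had a limma adjusted p of 0.0477. Its paralog Rps27l, a p53-responsive gene, lay at 2.34, 2.8 and 4.89 millionths in TNKO-host tumours 1, 2 and 3, against -3.22, -2.82 and -4.01 millionths in WT-host tumours 1, 2 and 3, relative to its own mean. All TNKO-host values lay above all WT-host values, with TNKO-host tumour 3 the highest. The difference was 6.69 millionths (SE 0.829, 6.36 residual SDs, limma adjusted p = 0.0702).

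Rps19, the gene most often mutated in human Diamond-Blackfan anaemia, lay at 1.07, 1.05 and 0.93 millionths in TNKO-host tumours 1, 2 and 3, against -1.44, -0.79 and -0.82 millionths in WT-host tumours 1, 2 and 3. The groups did not overlap, with a difference of 2.03 millionths (SE 0.29, 7.68 residual SDs, limma adjusted p = 0.0791). Rps25, which takes part in initiation at internal entry sites of viral and cellular mRNAs, lay at 54.3, 36 and 30.8 millionths in TNKO-host tumours 1, 2 and 3, against -40.7, -24.1 and -56.3 millionths in WT-host tumours 1, 2 and 3. Its groups were also apart, and TNKO-host tumour 1 was the highest. The difference was 80.7 millionths (SE 10.9, 5.63 residual SDs, limma adjusted p = 0.0758). Rpsa, a small subunit protein also known as a laminin-binding protein at the cell surface, lay at 4.43, 2.87 and 3.92 millionths in TNKO-host tumours 1, 2 and 3, against -1.33, -6.27 and -3.62 millionths in WT-host tumours 1, 2 and 3. The groups did not overlap, and WT-host tumour 2 was the lowest. The difference was 7.48 millionths (SE 1.42, 4.07 residual SDs, limma adjusted p = 0.106).

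Rps18, a protein of the head of the subunit, had the largest difference relative to its spread and a small one in size. It lay at 0.278, 0.328 and 0.388 millionths in TNKO-host tumours 1, 2 and 3, against -0.442, -0.302 and -0.252 millionths in WT-host tumours 1, 2 and 3, a difference of 0.663 millionths (SE 0.216, 8.31 residual SDs, limma adjusted p = 0.205). The 3 probe sets of Rps18 at a level of at least 10 were all higher in TNKO hosts, while their mean with the 3 dimmer ones was lower, with a difference of -2.37 millionths. Rps15, another protein of the head, lay at 3.14, 1.01 and 3.47 millionths in TNKO-host tumours 1, 2 and 3, against -4.48, -0.893 and -2.23 millionths in WT-host tumours 1, 2 and 3. Rps7, one of the proteins that bind Mdm2, lay at 1.89, 7.82 and 14 millionths in TNKO-host tumours 1, 2 and 3, against -9.29, -1.09 and -13.4 millionths in WT-host tumours 1, 2 and 3. In both the groups did not overlap and the highest value was that of TNKO-host tumour 3. Their differences were 5.07 millionths (adjusted p = 0.141) and 15.8 millionths (adjusted p = 0.182). Rps14, the ribosomal gene of the human 5q- syndrome, differed by 14.6 millionths (adjusted p = 0.22), with its lowest TNKO-host value at -0.78 and its highest WT-host value at -3.16 relative to its mean.

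The other small subunit genes had an unadjusted p over 0.05. Rps10, Rps24 and Rps3 were higher in TNKO hosts with groups that did not overlap, by 0.123, 0.42 and 1.66 millionths. For Rps3, TNKO-host tumour 3 stood 2.95 millionths above the mean and the other tumours lay between -1.21 and -0.0167. Rps6, the substrate of the S6 kinases, differed by 0.0547 millionths with overlapping groups (unadjusted p = 0.805), and Rps4x by 0.01 millionths, which is 1 step of the deposited digits. The 3 small subunit genes that were lower were Rps16, Rps2 and the transcribed pseudogene Rps4l, with differences of -0.173, -0.11 and -22 millionths. Their groups overlapped. Once TNKO-host tumour 3 was left out, Rps2 and Rps4l were higher in TNKO hosts and Rps29 was lower, with 22 of 24 small subunit genes higher. Rps16, whose protein reaches the tRNA site of the subunit, and the pseudogene Rps15a-ps6 stood at levels of 5.68 and 6.64, under the gene median. Rps20, Rps26, Rps9, Rps28, Rps29, Rps3a1 and Rps15a-ps6 were higher by 0.00333 to 6.22 millionths, all with overlapping groups.

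**Figure D3:**
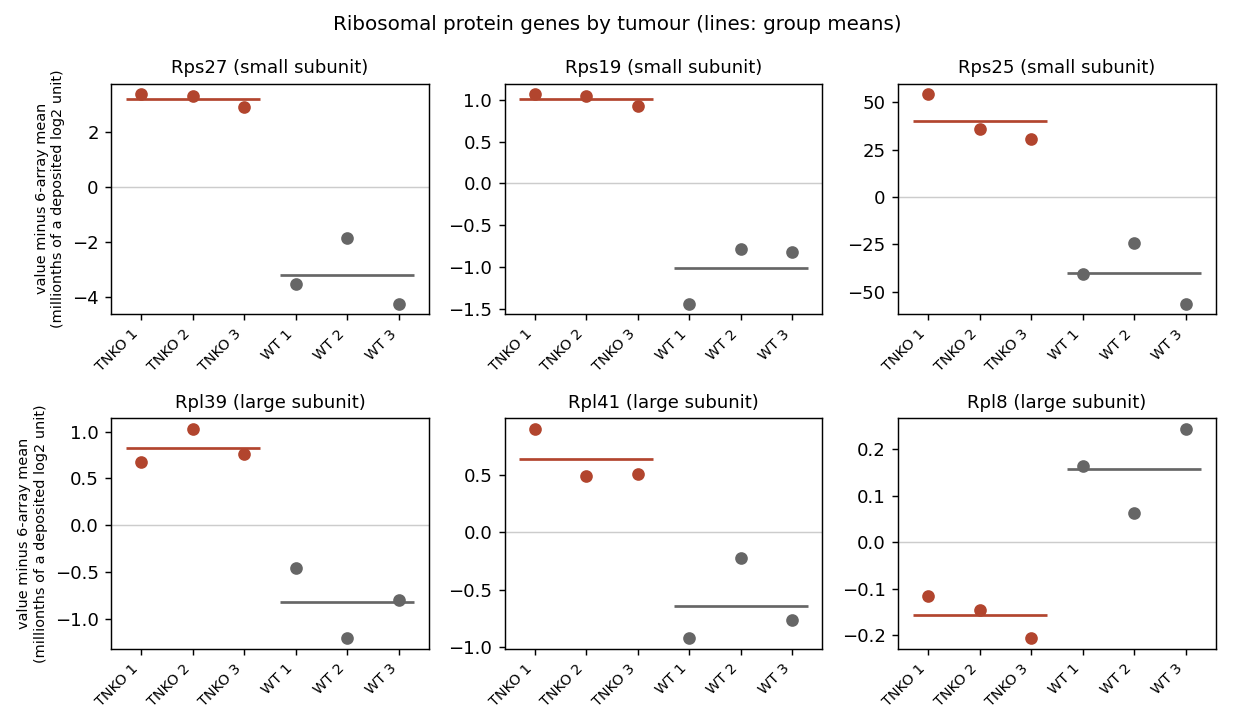
Value of each tumour minus the mean over the 6 arrays (vertical axis, millionths of a deposited log2 unit) for 6 ribosomal protein genes, with TNKO-host tumours in red and WT-host tumours in grey, and lines at the group means. The TNKO-host values lie above all WT-host values for Rps27, Rps19, Rps25, Rpl39 and Rpl41 and below them for Rpl8 in the deposited values, while after subtraction of array medians the group mean of each is lower in TNKO hosts.

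In the large subunit, Rpl39 and Rpl41, which encode its smallest proteins, were among the genes with the smallest p. Rpl39, which lines the exit tunnel, lay at 0.679, 1.03 and 0.764 millionths in TNKO-host tumours 1, 2 and 3, against -0.46, -1.21 and -0.803 millionths in WT-host tumours 1, 2 and 3, a difference of 1.65 millionths (SE 0.306, 5.58 residual SDs, limma adjusted p = 0.105). Rpl41, a very short peptide that sits between the subunits, lay at 0.905, 0.495 and 0.515 millionths in TNKO-host tumours 1, 2 and 3, against -0.925, -0.225 and -0.765 millionths in WT-host tumours 1, 2 and 3, a difference of 1.28 millionths (SE 0.313, 4.16 residual SDs, limma adjusted p = 0.142). Neither pair of groups overlapped. Rpl27a, a protein near the core of the large subunit, had a wider span and lay at 47.5, 120 and 99.7 millionths in TNKO-host tumours 1, 2 and 3, against -142, -50.9 and -74.1 millionths in WT-host tumours 1, 2 and 3. Its groups did not overlap, and WT-host tumour 1 was the lowest. The difference was 178 millionths (SE 32.5, 4.18 residual SDs, limma adjusted p = 0.102), and its second probe set had the opposite direction.

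Rpl22l1, the paralog of Rpl22, lay at 34.4, 122 and 189 millionths in TNKO-host tumours 1, 2 and 3, against -119, -33.8 and -192 millionths in WT-host tumours 1, 2 and 3. The TNKO-host tumours were all above the WT-host tumours, with a difference of 230 millionths (SE 59.8, 2.94 residual SDs, limma adjusted p = 0.153). Its parent Rpl22 differed by 1.29 millionths with overlapping groups (adjusted p = 0.423). Rpl11, which with Rpl5 and the 5S RNA binds Mdm2, lay at 1.86, 2.53 and 7.28 millionths in TNKO-host tumours 1, 2 and 3, against -5.38, -0.38 and -5.91 millionths in WT-host tumours 1, 2 and 3. The groups did not overlap, although TNKO-host tumours 1 and 2 lay close to WT-host tumour 2, and the difference was 7.78 millionths (SE 2.3, 2.59 residual SDs, limma adjusted p = 0.181). Rpl35, a protein at the tunnel exit, differed by 2.35 millionths (adjusted p = 0.246), with TNKO-host tumour 2 at -0.345 and WT-host tumour 2 at -0.535 relative to its mean.

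Rpl10a, Rpl7 and Rpl7l1, the paralog of Rpl7, were also higher in TNKO hosts with groups that did not overlap, by 0.393, 0.963 and 5.83 millionths and at unadjusted p of 0.144, 0.0534 and 0.0996. The mean over the 3 probe sets of Rpl7l1 was lower, with a difference of -5.18 millionths. Rpl13a, Rpl37a, Rpl19, Rpl4 and Rpl27 were higher by 0.02 to 0.513 millionths with overlapping groups, and Rpl37, Rpl38, Rpl6, Rpl14 and Rpl7a were lower, with differences of -0.437 to -0.01 millionths and overlapping groups.

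Rpl8, a protein near the peptidyl transferase centre, was the 1 gene whose TNKO-host values all lay below the WT-host values. It lay at -0.117, -0.147 and -0.207 millionths in TNKO-host tumours 1, 2 and 3, against 0.163, 0.0633 and 0.243 millionths in WT-host tumours 1, 2 and 3. The difference was -0.313 millionths (SE 0.215, -4.38 residual SDs, limma adjusted p = 0.481), a range of 45 steps of the deposited digits over the 6 tumours. Rpl12, a protein of the stalk base, differed by -1.01 millionths (unadjusted p = 0.131), and WT-host tumour 3 stood 1.5 millionths above the mean. The stalk proteins Rplp0 and Rplp2, which recruit elongation factors, differed by -0.0267 and -0.03 millionths with overlapping groups (unadjusted p = 0.903 and 0.922). Rps19bp1, outside either subunit, differed by -0.784 millionths (unadjusted p = 0.183), and TNKO-host tumour 3 was its lowest.

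In the paralogs with restricted expression the groups overlapped. Rpl39l, known for its expression in testis, had the widest span of the 51 genes and lay at -7411, -5415 and 5628 millionths in TNKO-host tumours 1, 2 and 3, against 1382, 3778 and 2037 millionths in WT-host tumours 1, 2 and 3. TNKO-host tumours 1 and 2 were low and TNKO-host tumour 3 was the highest, with a difference of -4798 millionths (SE 3848, -0.951 residual SDs, limma adjusted p = 0.549). Rpl3l, the form of Rpl3 made in heart and skeletal muscle, lay at -53.6, -85.4 and 32.9 millionths in TNKO-host tumours 1, 2 and 3, against 59, 62.9 and -15.7 millionths in WT-host tumours 1, 2 and 3, at a level of 5.72, with the same 2 tumours lowest, and a difference of -70.7 millionths (SE 40.8, -1.32 residual SDs, limma adjusted p = 0.408). The summed level of 12 skeletal muscle markers was likewise lowest in TNKO-host tumours 1 and 2, at 78 and 78.7. It was 84 in TNKO-host tumour 3 and 82.6 to 84.3 in the WT-host tumours. The lowest gene mean on the deposited scale was 5.23, so a level above 0 does not show that a marker was detected. The part of the muscle markers in the values of both genes was not tested.

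By tumour, a TNKO-host tumour had the highest value for 41 of the 51 genes, of which 1 tied with a WT-host tumour, against 57.8% of all genes and 46.2% of genes at a level of at least 10. TNKO-host tumour 3 was the highest for 18, tumour 1 for 15 and tumour 2 for 8, against 3134, 3624 and 3754 of all 18193 genes. The highest was a TNKO-host tumour for 23 of 24 small subunit genes and 18 of 26 large subunit genes. A WT-host tumour was the lowest for 35 of 51, against 54.9% of all genes and 41.8% of genes at a level of at least 10. WT-host tumour 1 was the lowest for 17, tumour 3 for 13 and tumour 2 for 5, against 3322, 3922 and 2738 of all genes. In Rps28 WT-host tumour 1 tied for the lowest with TNKO-host tumour 1, for which it was counted. In Rps3a1 and Rps4x WT-host tumours tied for the lowest, and the lower number was counted. TNKO-host tumour 3 was both the most frequent highest tumour and the lowest for 10 genes, 7 of them of the large subunit. Hair follicle markers summed to 61.4 in this tumour, against 42.6 to 43.1 in the other 5, and adipocyte markers summed to 43 to 45.3 in TNKO-host tumours against 41.7 to 43.5 in WT-host tumours. Neutrophil markers were higher in TNKO hosts for 5 of 5 genes, with a median of 1.58 residual SDs, 2 at an unadjusted p under 0.05, and sums of 35.4353 to 35.4385 in TNKO-host tumours against 35.435 to 35.4358 in WT-host tumours. T and B cell markers were higher for 5 of 5 measured (median 1.71 residual SDs, sums of 32.9012 to 32.9013 in TNKO-host tumours against 32.9011 to 32.9013 in WT-host tumours) and endothelial markers for 4 of 4 (median 1.24, sums of 29.4989 to 29.4999 in TNKO-host tumours against 29.4979 to 29.4986 in WT-host tumours). Macrophage and fibroblast markers were higher for 3 of 4 each, erythroid markers for 2 of 2, epithelial markers for 2 of 7 and skeletal muscle markers for 0 of 12. The fibroblast marker Dcn was lower with groups apart (-45.7 millionths, -4.11 residual SDs, limma adjusted p = 0.104). Of all genes 57.5% were higher, and 9.99% were higher at an unadjusted p under 0.05. The lowest gene mean on the deposited scale was 5.23, and Myh4, Cd79a and Pparg lay near it at 5.73, 5.90 and 5.92. A level above 0 therefore does not show that a marker was detected. The part of these cells and tissues in the ribosomal protein values was not tested, and without TNKO-host tumour 3, 38 of 51 genes were higher in TNKO hosts.

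**Figure D4:**
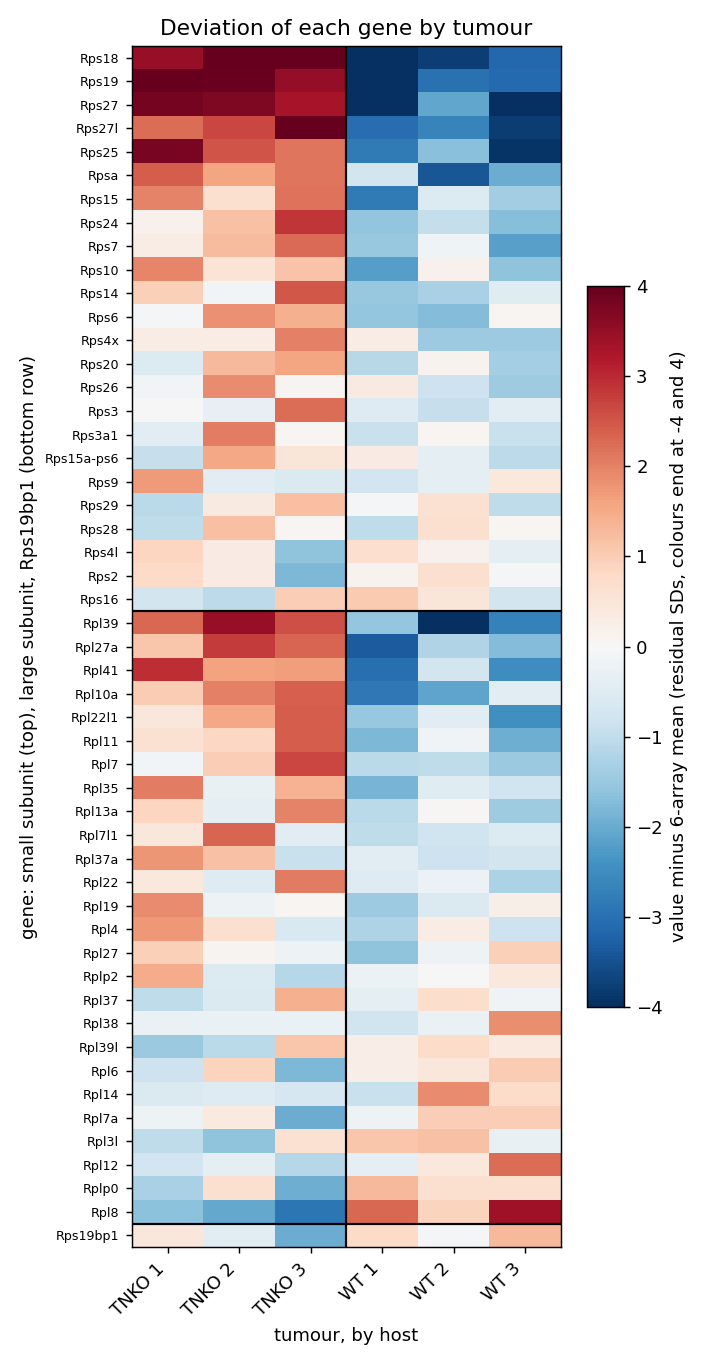
Deviation of each tumour from the gene's mean over the 6 arrays (colour, residual SDs, red above and blue below) for the 24 small subunit genes, the 26 large subunit genes and Rps19bp1 (rows, ordered within subunit by difference), with TNKO-host tumours in the left columns and WT-host tumours in the right columns. In the deposited values 21 small and 15 large subunit genes were higher in TNKO hosts, and after quantile normalization or subtraction of array medians none was, against 1.75% and 1.30% of all genes.

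The other probe sets of the same genes gave a further reading. Of the 24 genes with several probe sets, 41 of the 56 other probe sets had the direction of the brightest one. In all, 77 of 107 probe sets were higher in TNKO hosts, against 54.4% of all probe sets. By level, 60 of 67 probe sets at 10 or more were higher in TNKO hosts, against 47.8% of all probe sets at that level, and 17 of 40 under 10 were higher, against 54.7%. All these probe sets had 0 calls at an adjusted p of 0.05 (0.175% of all probe sets were called), with 28 higher and 0 lower at an unadjusted p under 0.05 (9.53% and 10.8% of all). The smallest adjusted p was that of a dimmer probe set of Rps29, named after its values were seen, at 1.43, 1.26 and 1.51 millionths in TNKO-host tumours 1, 2 and 3, against -1.3, -1.42 and -1.49 millionths in WT-host tumours 1, 2 and 3. Its groups lay far apart relative to their spread, with a difference of 2.8 millionths (SE 0.224, 25.4 residual SDs, limma adjusted p = 0.0524). The brightest probe set of Rps29 differed by 0.117 millionths with overlapping groups (unadjusted p = 0.749).

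A further 110 probe sets carried the symbol of a ribosomal protein gene together with another symbol, and none of their genes is named here. Of these, 89 were higher in TNKO hosts in the deposited values, against 54.4% of all probe sets, with 36 higher and 4 lower at an unadjusted p under 0.05 (9.53% and 10.8% of all) and 0 at an adjusted p of 0.05 (0.175% of all).

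Genes that make, serve or control the ribosome were read beside its proteins. Over all genes, 57.5% were higher in TNKO hosts, and 9.99% were higher and 8.43% lower at an unadjusted p under 0.05. The median level of each list below lay above the gene median of 7.09, so brighter genes are given too. Among the 9096 genes above the median level, 44.1% were higher, with 699 higher and 1281 lower at that p. Among the 1265 genes at a level of at least 10, 44.7% were higher, with 121 higher and 181 lower at that p. Of 40 measured ribosome biogenesis genes 16 were higher, and at that p 1 was higher and 9 were lower. The 1 was Ubtf, a factor of rRNA gene transcription (10.7 millionths, adjusted p = 0.106), and the smallest p among the 9 was that of Efl1, which frees new large subunits of Eif6 (-6.58 millionths, adjusted p = 0.0702). Polr1a, the largest subunit of RNA polymerase I, differed by -42.2 millionths (adjusted p = 0.148). Of 13 elongation factors and other genes whose mRNAs begin with a pyrimidine tract, 6 were higher, with 0 higher and 1 lower at an unadjusted p under 0.05, Pabpc1 (-0.783 millionths, adjusted p = 0.175).

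Of 24 translation initiation factors 11 were higher, with 1 higher (Eif5a) and 2 lower (Eif4a2 and Eif5b) at an unadjusted p under 0.05, beside the 9.99% and 8.43% of all genes. The shares higher were 40% of the biogenesis genes, 46.2% of the genes with a pyrimidine tract and 45.8% of the initiation factors. These shares lay nearer to the 44.1% and 44.7% of the brighter genes than to the 57.5% of all genes. Of 14 genes of mTORC1 signalling 9 were higher, with Deptor, Mlst8 and Akt1s1 higher and Rheb lower at that p. In the Myc network 2 of 7 were higher, with 1 lower at that p, Mnt. Of 3 genes of p53 surveillance 1 was higher, and Mdm2, the ligase that free ribosomal proteins bind, differed by -23.9 millionths (adjusted p = 0.0974). Fau, a ribosomal protein gene with another kind of symbol, differed by 0.04 millionths. None of these genes passed an adjusted p of 0.05.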

How the data were processed

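RNA of 6 tumours was hybridised to Affymetrix 3' arrays, from 100 ng of total RNA per the labels' protocols. The log2 values were deposited by the authors, already normalized, with R 2.7.2 per the submitters' processing notes. How probe sets were summarized and scaled, and to which base the logarithm was taken, is not given in the sources used here. The scale was taken as log2 from its range. Precision rests on the number of arrays, which have no read depth.

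Tests left out 64 control probe sets. Symbols came from the platform annotation, and all 51 matched RefSeq by gene identifier. TNKO minus WT was fitted in R 4.3.3 by limma 3.58.1 (eBayes on lmFit, two-sided) over 45037 probe sets, with Benjamini-Hochberg adjustment and a threshold of 0.05. A difference under 1e-09 was given no direction. The code was tested on simulated data. Moderation holds the SE of probe sets with a very small spread within groups near a common floor.

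The members and lists were chosen with earlier results of these data known. Named were the 4 higher and 4 lower genes of each subunit with the smallest p, the 6 with the widest span, stalk and membrane genes, paralogs with their parents, Rpl11 and Rps6. The other genes at an unadjusted p under 0.05 and those with groups apart were named after their values were seen. The alternatives tried were subtraction of array medians, quantile normalization, a trend, robust eBayes, array weights, a level filter, a replicate block, leaving out each array, the mean over a gene's probe sets and the exclusion of paralogs. A span filter, a level of at least 10 and both scalings without TNKO-host tumour 3 were added after the data were seen.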

Additional observations from a re-analysis of the deposited data

How the results depend on the processing

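In the values as deposited 0 of the 51 genes were called, 36 were higher in TNKO hosts and 15 were higher at an unadjusted p under 0.05. After quantile normalization 0 were higher (0 small and 0 large subunit genes) and 25 had no direction, 0 lay at that p, 0 had groups apart, 0 probe sets of the table were called, and the medians were -0.195 residual SDs over the 51 genes and -0.582 for small minus large subunit. After subtraction of the array medians 0 were higher (0 small, 0 large), 0 lay at that p, 1 had groups apart and 0 apart and higher, and the median was -0.806. Of all probe sets, 1.31% lay at that p after quantile normalization and 0.193% after subtraction. TNKO-host tumour 3 had the array median that stood apart. Without TNKO-host tumour 3, as chosen after seeing the data, subtraction gave 49 higher (24 large) and a median of 0.11. Of all genes 88.8% were higher, with a median of 0.109. At that p 0 of the 51 were higher and 1 was lower, against 0.355% of all probe sets in either direction. Groups were apart for 4 of the 51 (2 higher). Quantile normalization without TNKO-host tumour 3 gave 5 higher (3 small, 2 large), a median of 0 and 36 of the 51 without a direction. Of all genes 48.9% were higher and 6.49% had no direction. At that p 2 of the 51 were higher and 1 was lower, against 26.3% of all probe sets in either direction. Groups were apart for 3 of the 51 (2 higher). There was 1 call among the 51, against 1424 of the 45037 probe sets. An intensity trend gave 18 genes higher and 1 lower at that p, against 20.3% of all probe sets in either direction. With only probe sets above the median level, 1 of the 49 genes kept was called, Rps27 (6.40 millionths, limma adjusted p = 0.0477). In that fit 285 of 22518 probe sets were called. With the replicate number as a block, 8 genes were higher and 0 lower at that p, against 17.4% of all probe sets in either direction. In that fit 0 probe sets of the table were called. The deviations of same-numbered tumours had correlations of 0.0289, -0.0157 and 0.00531, against -0.0789 to 0.0721 for the other pairs. Deviations from a mean of 3 arrays cannot show whether same-numbered tumours shared a step, and the labels give only the number. Leaving out each tumour in turn gave 34 to 38 genes higher (20 to 22 small, 14 to 17 large). Of all genes 56.0% to 58.1% were higher. At that p 10 to 13 of the 51 were higher and 0 to 2 lower. In either direction 15.1% to 18.7% of all probe sets lay at that p. Groups were apart for 25 to 28 of the 51 (23 to 26 higher), and the share over all genes is not given here. Groups of 2 and 3 arrays are apart more easily than groups of 3 and 3, so these counts cannot be set against 22. Of the 51 genes 0 were called, with medians of 1.22 to 1.56 and of 0.483 to 1.24 for small minus large. The table held 0 to 73 calls (73 without WT-host tumour 2, at most 6 without any other), against 79. Averaging a gene's probe sets gave 29 higher, of which 15 small and 14 large. The cause of these changes was not tested, except that subtraction moves every probe set alike.

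Differences of named genes that turned, in millionths, were after subtraction of the medians Rpl11 -756, Rpl22 -762, Rpl22l1 -534, Rpl27a -586, Rpl35 -761, Rpl39 -762, Rpl41 -763, Rpl7 -763, Rpl7l1 -758, Rps14 -749, Rps15 -759, Rps15a-ps6 -758, Rps18 -763, Rps19 -762, Rps25 -683, Rps27 -757, Rps27l -757, Rps4x -764, Rps6 -764, Rps7 -748 and Rpsa -756. After quantile normalization they were Rpl11 -366, Rpl22l1 -325, Rpl27a -1001, Rpl39 -1040, Rpl7l1 -538, Rps15 -209, Rps15a-ps6 -590, Rps19 -83.4, Rps25 -870, Rps27 -887, Rps27l -1524, Rps6 -1364 and Rps7 -2155. With a gene's probe sets averaged they were Rpl7l1 -5.18, Rps18 -2.37, Rps4x -0.0522 and Rps6 -0.766. With array weights it was Rplp2 0.00547. Leaving out each tumour gave ranges of -0.237 to 0.113 for Rplp2, -0.228 to 0.0767 for Rps2 and -60.7 to 34.2 for Rps4l. These turns cover 31 named genes, and genes outside them, such as Rps29 without TNKO-host tumour 3, also turned. The precision is limited by 3 arrays per host and, for the 6 genes spanning fewer than 10 steps, by the deposited digits. Robust eBayes, a minimum span of 10 steps, only levels of at least 10 and leaving out the paralogs, pseudogenes and binding protein gene turned no named gene that they kept.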
